A study of Mus musculus with 2 samples.

Results

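Genes that protect genomic imprints or write, read and remove methylation on histone H3 lysine 9 (H3K9) were followed in single-cell RNA-seq of mouse embryonic stem cells (mESCs). They were chosen by name, 10 of the 31053 genes counted: *Zfp57*, *Trim28*, *Zfp445*, *Setdb1*, *Ehmt1*, *Ehmt2*, *Kdm1a*, *Kdm1b*, *Ctcf* and *Dppa3*. One library came from parental wild-type E14 mESCs (WT) and 1 from E14 cells carrying a CRISPR-Cas9 double knockout of *Smad1* and *Smad5* (S1/5 dKO), the intracellular transducers of bone morphogenetic protein (BMP) signals. Both lines were grown without feeder cells on gelatin, in 15% fetal bovine serum with 1000 U/ml of the cytokine LIF, and neither received another treatment. The sources used here do not say which knockout line was sequenced. Barcodes were taken as cells where 1000 or more genes were detected and mitochondrial (mt-) genes made up 5% of UMIs or less, which gave 2236 WT cells and 2910 cells of the other library. A UMI, or unique molecular identifier, marks 1 captured mRNA molecule, and levels are given as CPM, the UMIs of a gene for each 1000000 UMIs of the same cells.

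An imprinted gene is expressed mainly from 1 parental copy, as directed by DNA methylation that was set in the germ line on 1 of the copies. The zinc finger proteins ZFP57 and ZFP445 bind the methylated copy and bring TRIM28 (also called KAP1), a corepressor that in turn recruits SETDB1, which writes H3K9 trimethylation, and the maintenance DNA methyltransferase. EHMT1 and EHMT2 (GLP and G9a) write H3K9 mono- and dimethylation. KDM1A and KDM1B (LSD1 and LSD2) remove methyl groups from H3 lysine 4, KDM1A also from H3K9 in some complexes, and KDM1B acts on imprints in the oocyte. CTCF binds the unmethylated copy of several imprinted regions and organises chromatin loops, and DPPA3 (also called STELLA) shields methylation in the early embryo while opposing its maintenance in other cells.

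The sequence that ZFP57 recognises when methylated is the hexamer TGCCGC. Read from the other strand it appears as GCGGCA. *Mest* is a paternally expressed gene by which cells are divided below, and the 250 bases before 1 of its annotated starts are shown since they hold this hexamer, in capitals, at 2 places. The window is chr6:30737800-30738049 on the plus strand of GRCm38.p6, as given by RefSeq.
*Mest* promoter: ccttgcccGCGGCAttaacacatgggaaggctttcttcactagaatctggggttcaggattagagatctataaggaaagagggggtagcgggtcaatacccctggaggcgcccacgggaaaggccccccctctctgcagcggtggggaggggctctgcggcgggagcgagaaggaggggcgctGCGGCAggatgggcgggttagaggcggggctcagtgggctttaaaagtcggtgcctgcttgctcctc
The matches begin 242 and 67 bases before the start, both on the minus strand. Another annotated start of *Mest*, with its window at chr6:30733256-30733505, had 0 matches. The windows listed for *Nnat* and *Grb10*, imprinted genes used below, also had 0. Of 32851 mouse promoter windows of this length, 8.68% held the hexamer on either strand and 0.874% held it at least 2 times. Windows were listed for 9 of the 10 genes, 12 windows in all, and 2 of these held 1 match each, those of *Trim28* and of 1 of the 2 starts of *Ehmt2*. A match describes the letters only, and binding and methylation were not measured in these libraries.

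The 2 libraries held 95965242 and 109020533 UMIs in cells, with medians of 38662 and 34548.5 UMIs per cell, and shared 0 cell barcodes. The targeted genes were checked first. *Smad1* had 13.4 CPM in WT and 9.17 in the other cells, a log2 ratio of -0.55 (95% counting interval -0.67 to -0.43), whereas *Smad5* stood at 6.05 and 9.09, a log2 ratio of 0.59 (0.44 to 0.74). The edited alleles are not described in the sources used here. Protein was not measured in these libraries, so mRNA levels alone cannot check the label. The second library is named only by its label, as the dKO-labelled library. The BMP target *Id1* had 323 and 161 CPM. All 8 mESC markers, among them *Pou5f1*, *Sox2* and *Nanog*, were present in both libraries at 43.3 CPM or more. The summed level of 5 endoderm markers was 1.5 and 1.62 CPM and that of 5 fibroblast markers 1.00 and 1.18. A list of 5 genes of 2-cell-like (2C) cells summed to 1.72 CPM in WT and 4.24 in the dKO-labelled library, with *Zscan4d* at 102 and 206 UMIs and *Tcstv3* at 14 and 177 UMIs. Each condition had 1 library, so no test between conditions was possible, and all intervals are exact and cover counting error only.

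The 8 better-counted genes were present at nearly the same level in both libraries, and the 2 scarcest, *Kdm1b* and *Dppa3*, were higher in the dKO-labelled library. Of the 10 genes, 2 lay at least 1.2-fold apart, while 20.5% of 13654 genes with at least 50 UMIs did so, 9.13% by being higher in the dKO-labelled library, as both were. This share differed with depth: it was 39.5% among genes with 50 UMIs or more but under 1000, which include *Kdm1b* and *Dppa3*, and 7.78% among those with at least 1000, which include the other 8. The median log2 ratio of the 10 genes was -0.00094, beside -0.0069 for all genes, with 5 genes above 0.

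**Figure D1:**
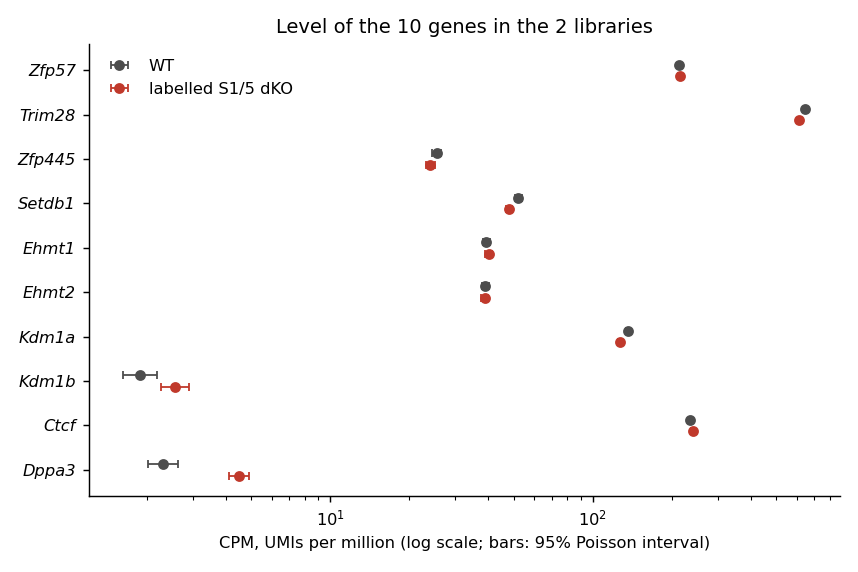
Level of each gene in CPM (log axis) in the WT library (grey) and the dKO-labelled library (red), with bars for the 95% Poisson interval. The points of 8 genes nearly coincide, while *Kdm1b* (1.89 and 2.57) and *Dppa3* (2.31 and 4.49) lie apart.

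Since every molecule was counted once at its 3′ end, CPM levels need no division by gene length. *Trim28* led, at 646 CPM (641 to 651) in WT and 609 CPM (605 to 614) in the dKO-labelled library. It was followed by *Ctcf*, *Zfp57*, *Kdm1a*, *Setdb1*, *Ehmt1*, *Ehmt2*, *Zfp445*, *Dppa3* and *Kdm1b*, in the same order in both libraries. The intervals of *Ehmt1* and *Ehmt2* overlapped in both libraries and those of *Dppa3* and *Kdm1b* in WT, so these neighbours were not separated by their counts.

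Among the DNA-binding recruiters, *Zfp57* (chr17:37001163-37010635) had 213.8 CPM in WT and 214.8 in the other library, from 20518 and 23421 UMIs. Its log2 ratio of 0.01 had an interval from -0.02 to 0.03. *Zfp445* (chr9:122844529-122866006) was far scarcer, at 25.5 and 24.1 CPM, with a log2 ratio of -0.08 (-0.16 to -0.0019). *Trim28* (chr7:12999114-13031035), the corepressor both proteins use, had a log2 ratio of -0.08 (-0.10 to -0.07), a small difference that its 62023 and 66439 UMIs resolve.

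*Setdb1* (chr3:95323525-95357202) stood at 52.1 and 48.0 CPM, a log2 ratio of -0.12 (-0.18 to -0.06) and the lowest of the 10. It was -0.21 in cells thinned to 10000 UMIs, still within 1.2-fold. At the 3′ ends, 21.3% of the 60-base stretches of *Setdb1* transcripts also occur in annotated transcripts of other genes, so a part of its count may be shared or lost. *Ehmt1* (chr2:24789928-24919614) had 39.3 and 40.1 CPM and *Ehmt2* (chr17:34898469-34914052) 39.0 and 38.7. The log2 ratios of this pair were 0.03 (-0.03 to 0.09) and -0.01 (-0.07 to 0.06), so both partners of the G9a/GLP dimer differed by less than their counting error.

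*Kdm1a* (chr4:136550540-136602723), the demethylase gene named in the title of the study, had 136.5 CPM in WT and 127.2 in the dKO-labelled library. Its log2 ratio was -0.10 (-0.14 to -0.07), within the middle 90% of all genes, which ran from -0.44 to 0.40. *Kdm1b* (chr13:47043499-47085279) had 181 UMIs in 2236 WT cells and 280 in 2910 cells, or 1.89 (1.62 to 2.18) and 2.57 (2.28 to 2.89) CPM. The ratio was 1.36-fold, with an interval from 1.13 to 1.65, and 9.23% of all genes were further apart. *Ctcf* (chr8:105636568-105682922) had 235.6 and 240.7 CPM, a log2 ratio of 0.03 (0.01 to 0.06).

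*Dppa3* (chr6:122626410-122630272) showed the largest difference of the 10. It had 222 UMIs in WT and 490 in the dKO-labelled library, or 2.31 (2.02 to 2.64) and 4.49 (4.11 to 4.91) CPM. The log2 ratio was 0.96 (0.73 to 1.19), 1.94-fold, and 1.46% of all genes were further apart. A processed pseudogene, Dppa3-ps on chromosome X, and other loci share 9.80% of the 60-base stretches at the 3′ ends of its transcripts, which leaves most of the gene countable. In barcodes with 10 to 100 UMIs, which hold free RNA rather than cells, *Dppa3* made up 2.27 CPM in WT and 10.2 in the other library, from 4 and 20 UMIs. *Kdm1b* made up 2.83 and 3.06 CPM there, from 5 and 6 UMIs. The free RNA level of *Dppa3* was thus above its cell level in the dKO-labelled library, and near it in WT, where it rests on 4 UMIs. For *Kdm1b*, 5 and 6 UMIs were too few to place free RNA above or below the cell level. The part of free RNA in either difference was not tested. No cell type that lacks the 10 genes was at hand to set a background of detection.

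**Figure D2:**
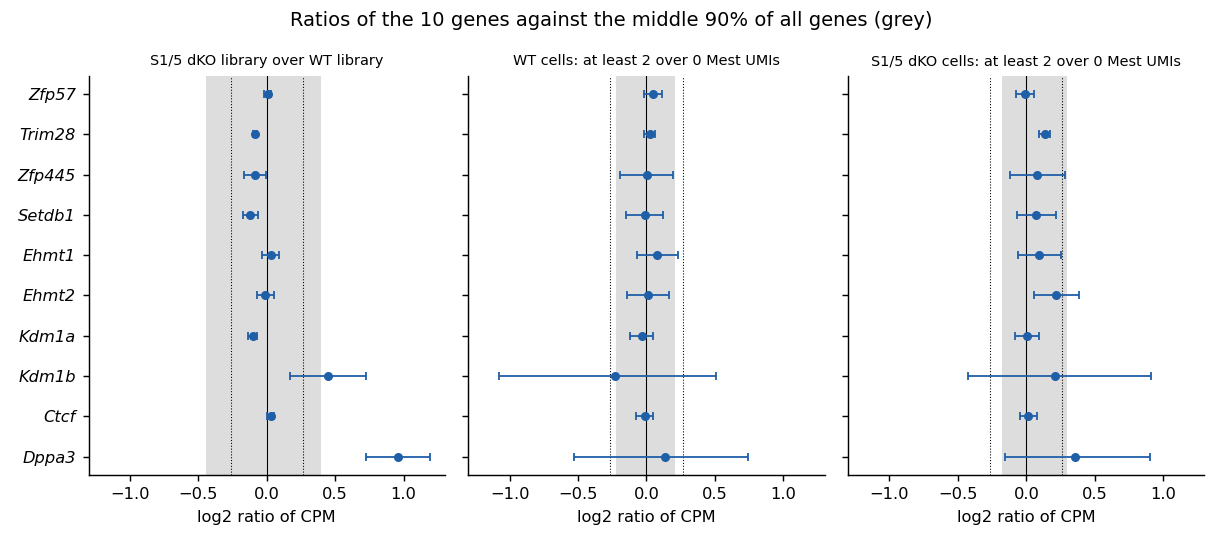
Log2 ratio of CPM for each gene (points, with 95% counting intervals) between the libraries and between cells with at least 2 and with 0 *Mest* UMIs in each library. Grey marks the middle 90% of all genes compared and dotted lines 1.2-fold. The 8 better-counted genes stay inside 1.2-fold in all 3 panels. *Kdm1b* lies outside it between the libraries, and *Dppa3* lies outside it between the libraries and in the last panel.

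The 2 rare transcripts were spread in different ways over single cells. *Kdm1b* UMIs were spread thinly: 159 WT cells had 1, 11 had 2 and 0 had more, beside 248, 10 and 4 in the dKO-labelled library. A single rate per UMI in all cells would give 7.71% of WT cells and 9.09% of the others with a UMI, and 7.6% and 9.0% were seen. For 2 *Kdm1b* UMIs it gives 7.95 and 14.0 cells, and for 3 or more 0.334 and 0.65, so the 4 cells of the dKO-labelled library lie above it. *Dppa3* UMIs were gathered in few cells. One rate per UMI would give 9.35% and 15.3% of cells with a *Dppa3* UMI, while 6.93% (155 cells) and 8.56% (249 cells) had one. Cells with 3 or more *Dppa3* UMIs numbered 15 in WT and 40 in the other library, where a single rate gives 0.601 and 3.19.

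**Figure D3:**
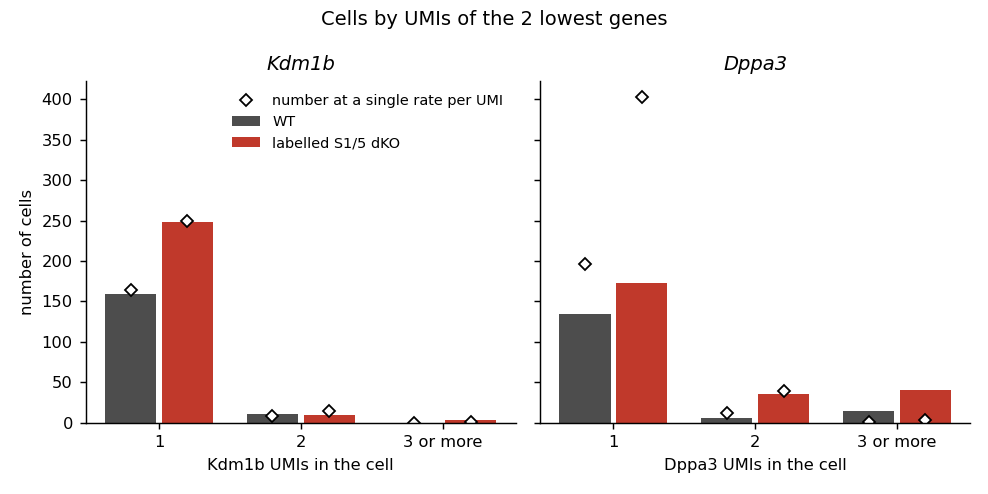
Number of cells with 1, 2 and 3 or more UMIs of *Kdm1b* (left) and *Dppa3* (right) in WT (grey) and the dKO-labelled library (red), and the number that a single rate per UMI gives (diamonds). *Kdm1b* lies near the diamonds for 1 and 2 UMIs and above the diamond for 3 or more in the dKO-labelled library (4 cells, 0.65), while *Dppa3* has fewer cells with 1 UMI and more with 3 or more.

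The 40 cells with 3 or more *Dppa3* UMIs were 1.37% of the dKO-labelled library and held 245 of its 490 *Dppa3* UMIs, and the 15 WT cells were 0.671% of WT and held 76 of 222. Their median depth was 36038 and 53826 UMIs per cell. The highest cell had 22 *Dppa3* UMIs in the former and 12 in WT. Without these cells, *Dppa3* stood at 2.28 CPM in the dKO-labelled library and 1.54 in WT, a log2 ratio of 0.57. Leaving out the 3 highest cells of each library gave 0.95. Since UMIs that come in groups vary more than independent counts, the counting interval of *Dppa3* is too narrow. This and the divisions in the next 2 paragraphs were chosen after the values were seen and carry no test.

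Cells with a *Dppa3* UMI were compared with cells without one, at median depths of 36426 and 34397 UMIs in the dKO-labelled library and 47309 and 38261 in WT. Among 8315 genes with at least 500 UMIs in the dKO-labelled library, *Rhox5*, an X-linked homeobox gene silenced by DNA methylation in many cells, was the most enriched, at 93.0 against 10.7 CPM. It had a UMI in 26.1% of the cells with *Dppa3* and 7.97% of the others. The next were *Klhl13*, an X-linked adaptor of a ubiquitin ligase, at 22.9 against 3.18, and *Tfap2c*, a transcription factor of germ cells and trophoblast, at 23.8 against 7.20 CPM. In WT the same 3 genes were also higher in cells with *Dppa3*, with log2 ratios of 1.01 for *Rhox5*, 1.95 for *Klhl13* and 0.67 for *Tfap2c*. Of the other members counted by at least 500 UMIs, the most distant was *Zfp57* in the dKO-labelled library, at 183 CPM in cells with *Dppa3* and 218 in those without, a log2 ratio of -0.25 (-0.32 to -0.18). The summed level of the 2C list was higher in the dKO-labelled library as well, in part through the few cells with *Tcstv3*. In that library the list had a UMI in 2 of 249 cells with *Dppa3* (0.803%) and in 21 of 2661 without (0.789%). In WT it had one in 0 of 155 and 9 of 2081. In the dKO-labelled library the de novo methylation genes *Dnmt3b* and *Dnmt3l* were higher in cells with *Dppa3*. Their log2 ratios were 0.50 (0.34 to 0.65) and 0.39 (0.30 to 0.48). In WT they were 0.13 (-0.06 to 0.32) and 0.19 (0.09 to 0.29), and the interval of *Dnmt3b* includes 0. The maintenance gene *Uhrf1* went the other way, at -0.15 (-0.26 to -0.04) in the dKO-labelled library and -0.14 (-0.27 to -0.02) in WT.

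*Dppa3* also differed with *Fgfbp1*, which encodes a secreted protein that binds fibroblast growth factors. In cells with 0 *Fgfbp1* UMIs, *Dppa3* stood at 1.56 CPM in WT (1.26 to 1.91) and 1.86 in the dKO-labelled library (1.55 to 2.21), and these intervals overlap. In cells with at least 1 *Fgfbp1* UMI it stood at 3.52 (2.94 to 4.18) and 9.22 (8.29 to 10.2). These cells made up 35.1% of WT and 33.5% of the other library, a similar share. A *Dppa3* UMI was seen in 9.31% and 15.6% of them, and in 5.65% and 5.01% of cells with 0 *Fgfbp1* UMIs. Since *Dppa3* UMIs came in groups, these CPM intervals are too narrow as well. The *Fgfbp1* groups were not compared without the cells of 3 or more *Dppa3* UMIs. The log2 ratio between libraries was 0.25 in the first group and 1.39 in the second, and no test of this difference was possible with 1 library per condition.

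The next question was whether WT cells that transcribe *Mest* differ in these factors from those that do not. Of the WT cells, 213 had at least 2 *Mest* UMIs, 37 had 1 and 1986 had 0, with medians of 41157 UMIs per cell in the first group and 38452.5 in the last. None of the 10 genes lay 1.2-fold apart between cells with at least 2 and with 0 *Mest* UMIs, while 6.52% of 7987 genes with at least 500 UMIs did. Of the 10, *Kdm1b* and *Dppa3* fell below that minimum. The median log2 ratio of the 10 was 0.01, beside -0.0049 for all genes compared.

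*Zfp57* had 220.2 CPM in the cells with *Mest* and 213.0 in those without, a log2 ratio of 0.05 (-0.02 to 0.11). *Trim28* had 656 and 645, a log2 ratio of 0.02 (-0.01 to 0.06). In cells with *Mest*, the counting interval of *Zfp57* thus reached from 1.15% lower to 8.09% higher than in cells without. In cells thinned to 10000 UMIs its log2 ratio was 0.13, past this interval, and still under 1.2-fold. *Setdb1* (51.6 and 52.2 CPM), *Ehmt2* (39.1 and 38.8), *Kdm1a* (134 and 137), *Ctcf* (233 and 236) and *Zfp445* (25.3 and 25.2) were as close, and *Ehmt1* stood at 41.2 and 39.0. *Dppa3*, from 25 UMIs, and *Kdm1b*, from 16 UMIs in the cells with *Mest*, had intervals of the log2 ratio from -0.53 to 0.74 and from -1.07 to 0.51, too wide to bound a change of 1.2-fold.

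Reference genes were picked with earlier results of these data known. *Nnat*, *Impact*, *Grb10* and *Xlr4a* lay apart in the same comparison, and *Id1* did not. *Nnat*, paternally expressed, had 14.6 CPM in WT cells with *Mest* and 1.65 in those without, a log2 ratio of 3.15 (2.80 to 3.50). *Impact*, also paternally expressed, had 68.8 and 43.0, a log2 ratio of 0.68. *Grb10*, maternally expressed in most tissues, had 7.36 and 21.1, a log2 ratio of -1.52 (-1.88 to -1.18). *Xlr4a*, an X-linked gene, had 3.03 and 0.0711. *Id1* had 348 and 318, a log2 ratio of 0.13 (0.08 to 0.18), under 1.2-fold. The targeted genes were also past 1.2-fold here, *Smad1* at 0.28 (0.02 to 0.52) and *Smad5* at 0.36 (-0.0064 to 0.72). Protein amount, binding and DNA methylation of these genes were not measured.

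In the dKO-labelled library the proportions were the other way round: 2074 cells had at least 2 *Mest* UMIs, 474 had 1 and 362 had 0. Of the 10 genes, only *Dppa3* lay at least 1.2-fold apart between the first and the last of these groups, at 4.50 against 3.52 CPM (log2 ratio 0.35, -0.15 to 0.90), while 9.37% of 7931 genes with at least 500 UMIs did. *Dppa3* was below this minimum, and its interval includes 0. *Zfp57* had 215.0 and 216.7 CPM, a log2 ratio of -0.01 (-0.08 to 0.05). *Trim28* was higher in cells with *Mest*, by 0.13 on the log2 scale (0.09 to 0.17), and so was *Ehmt2*, by 0.22 (0.05 to 0.38). Depth moved with the division here, with medians of 37046 UMIs per cell with *Mest* and 27756.5 without. In cells with 20000 to 60000 UMIs the values of *Trim28* and *Ehmt2* were 0.09 and 0.19.

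Several factors differed along rankings of cells by cell cycle genes. Cells were thinned to 10000 UMIs and ranked by the share of 15 genes of the G2 and M phases, such as *Top2a*, *Cdk1* and *Ccnb1*, and the highest tertile was compared with the lowest. Of the 8 members with at least 500 UMIs, 2 were at least 1.2-fold apart in WT and 3 in the dKO-labelled library, while 14.1% of 7071 genes with that minimum in WT and 17.3% of 7318 in the other library were. *Zfp57* stood at 196.0, 203.2 and 237.3 CPM from the lowest to the highest tertile in WT, and at 183.9, 210.1 and 245.3 CPM in the other library. Its log2 ratio of the highest to the lowest tertile was 0.28 (0.23 to 0.32) and 0.42 (0.37 to 0.46).

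*Zfp445* had log2 ratios of 0.28 (0.13 to 0.42) in WT and 0.28 (0.14 to 0.43) in the other library between the highest and the lowest tertile. *Trim28* and *Ctcf* differed by 0.15 and 0.13 in WT, and by 0.12 and 0.14 in the other library, under 1.2-fold. *Kdm1a* stood at 138, 137 and 135 CPM over the tertiles in WT, a log2 ratio of -0.03 (-0.09 to 0.03). In the dKO-labelled library *Ehmt1* was also past 1.2-fold, at 0.29 (0.18 to 0.40). Of the genes below the minimum, *Dppa3* had 0.59 (0.10 to 1.099) in WT and 0.40 (0.08 to 0.73) in the other library, and *Kdm1b* 0.39 (-0.16 to 0.94) and -0.09 (-0.51 to 0.34). Median depth moved with the ranking, from 35326 to 49737 UMIs per WT cell and from 31148 to 42265.5 in the other library, and its part was not tested. Within 5% of a limit between tertiles lay 398 WT cells and 494 of the others, so the tertiles are ranges and not phases.

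A ranking by 15 G1/S genes, such as the *Mcm* genes and *Pcna*, gave another order of the members. Of the 8 better-counted genes, 2 were at least 1.2-fold apart in WT and 3 in the dKO-labelled library, beside 14.1% of 7048 genes and 20.5% of 7334. *Setdb1* had log2 ratios of the highest to the lowest tertile of 0.40 (0.30 to 0.50) in WT and 0.36 (0.26 to 0.46) in the other library. *Kdm1a* had 0.26 (0.20 to 0.32) and 0.30 (0.24 to 0.36), and *Zfp445* 0.35 in both. *Zfp57* stood at -0.03 (-0.08 to 0.01) and -0.02 (-0.07 to 0.03). *Dppa3* lay in the direction opposite to its G2/M values, at -0.40 (-0.86 to 0.05) in WT and -0.87 (-1.22 to -0.54) in the dKO-labelled library.

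**Figure D4:**
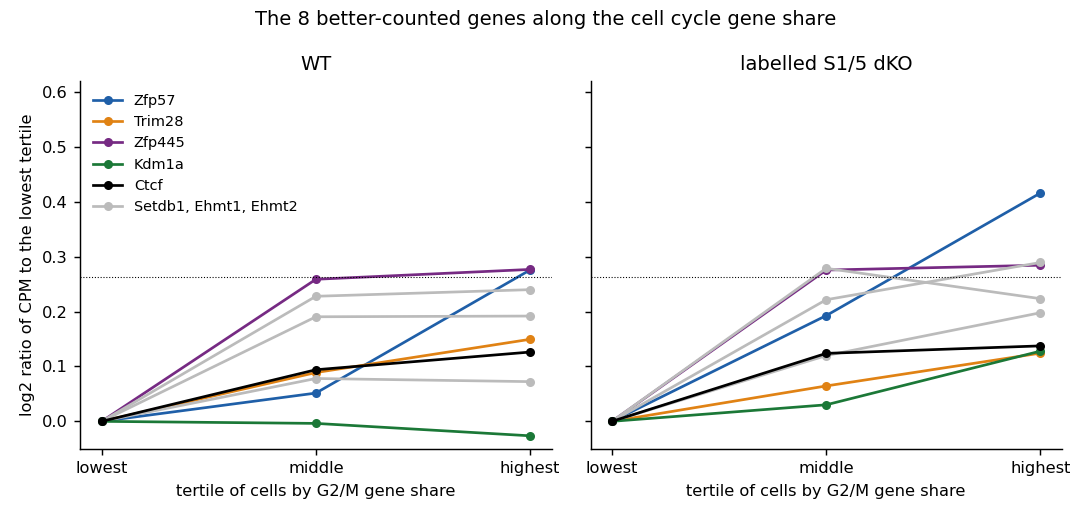
Log2 ratio of CPM to the lowest tertile of cells by G2/M gene share, for the 8 better-counted genes in WT (left) and the dKO-labelled library (right), with 1.2-fold dotted. *Zfp57* reaches 0.28 and 0.42 in the highest tertile, while *Kdm1a* stays at -0.03 in WT and 0.13 in the other library.

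Most cells had the abundant factors. After thinning to 10000 UMIs, which left 2193 WT cells and 2843 of the others, a *Zfp57* UMI was seen in 82.8% (81.1 to 84.3) of WT cells and 83.6% (82.2 to 85.0) of the others. Unthinned, these shares were 97.6% and 96.7%. *Trim28* was seen in 99.4% and 99.1% of thinned cells, *Ctcf* in 89.7% and 89.98% and *Kdm1a* in 70.3% and 69.3%. *Zfp445* was seen in 22.4% and 20.9%, *Kdm1b* in 1.55% and 2.29%, and *Dppa3* in 2.05% and 3.27%. The variance of thinned counts over their mean, which is 1 for independent counts at a fixed rate, was 1.35 and 1.31 for *Zfp57* and 1.45 and 1.38 for *Trim28*. It was 1.05 and 1.06 for *Zfp445* and 0.985 and 1.01 for *Kdm1b*, close to counting noise, and highest for *Dppa3* in the dKO-labelled library, at 1.88, where it was 1.18 in WT. Since the counts of *Zfp57* and *Trim28* varied more than independent counts, their counting intervals are too narrow as well.

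Over cells, the levels of the 10 genes were at most weakly correlated. Among their 45 pairs the highest Pearson correlation of log counts, in thinned cells, was 0.08 in WT and 0.11 in the other library, for *Zfp57* with *Trim28* in both. Among 6217 genes detected in at least 10% of thinned WT cells, none reached 0.2 in WT with any of the 10. The highest for *Zfp57* was the pluripotency gene *Zfp42*, at 0.18 in WT and 0.22 in the dKO-labelled library. Cells share their library, and such weak values in sparse counts describe these cells only.

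Genes of the same pathways were then compared between libraries. The 7 lists held 64 partners, of which 63 had at least 50 UMIs, 31 above and 32 below a ratio of 1, with a median log2 ratio of -0.0023. Of these, 2 were 1.2-fold apart, both lower in the dKO-labelled library, beside 20.5% of all genes. Of the 59 partners with at least 1000 UMIs 1 was, beside 7.78% of such genes, and of the 4 below it 1 was, beside 39.5%. These were *Kdm7a*, an H3K9 and H3K27 demethylase, at -0.40 (-0.70 to -0.10), and *Phf21a*, the subunit of the KDM1A complex that reads unmethylated H3 lysine 4, at -0.31 (-0.48 to -0.14).

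All 13 partners of the KRAB zinc finger pathway stayed within 1.2-fold, from *Cbx5*, which encodes the heterochromatin protein HP1 alpha, at -0.08 to *Zfp809*, a silencer of retroviral DNA, at 0.18. The 4 genes of the HUSH silencing complex ran from -0.05 for *Mphosph8* to 0.05 for *Pphln1*. The 6 other H3K9 methyltransferases and partners had 5 below 0, with *Wiz*, a partner of EHMT1 and EHMT2, at -0.20 and *Cdyl*, a reader of H3K9 methylation, at 0.03. Among 9 H3K9 demethylases the highest was *Kdm4c*, at 0.21. Of 12 KDM1A partners *Sfmbt1* was highest, at 0.12.

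The cohesin list had 10 counted genes, from the loader *Nipbl* at -0.13 to *Stag1*, a cohesin subunit, at 0.12. *Ctcfl*, the germ-line relative of *Ctcf*, had 15 UMIs in each library. In the list of methylation maintenance, *Dnmt1*, the maintenance methyltransferase, and *Uhrf1*, which guides it to hemimethylated DNA, both stood at 0.05, *Arid4a* was lowest at -0.10 and the de novo enzyme *Dnmt3a* highest at 0.22. A further list of 10 genes, next to *Dppa3* on chromosome 6 or often measured with it, ran from -0.19 for *Apobec1* to 0.14 for *Tfcp2l1*. All 10 stayed within 1.2-fold.

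**Figure D5:**
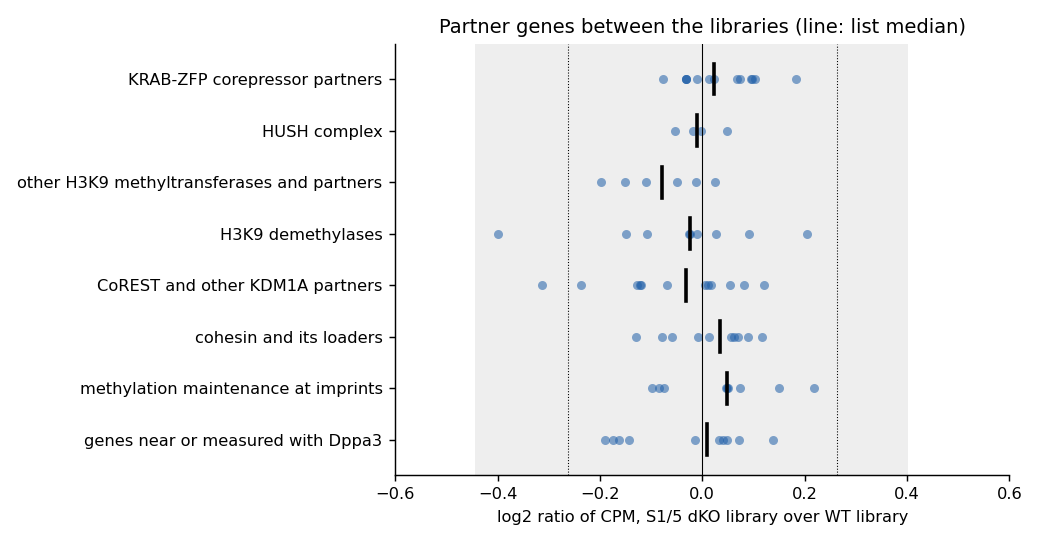
Log2 ratio of CPM between the libraries for the 63 counted partner genes and the 10 genes listed with *Dppa3*, by list, with the list median as a line, 1.2-fold dotted and the middle 90% of all genes in grey. Only *Kdm7a* (-0.40) and *Phf21a* (-0.31) lie beyond 1.2-fold.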

How the data were processed

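Single-cell RNA-seq libraries of WT and S1/5 dKO mESCs, 1 per condition, were made with the Chromium 3′ v3 kit. The authors processed the reads with Cell Ranger 3.0.2 on mm10, according to the submitters' notes, and deposited raw UMI counts per gene and barcode without normalization for all barcodes. Barcodes were kept by the limits of the paper, and no doublets were removed; cells with over 2 times the median UMIs were left out in an alternative. UMIs were summed over cells and divided by their total. Ratios carry exact conditional binomial intervals, levels exact Poisson intervals and shares exact binomial (Clopper-Pearson) intervals at 95%, which cover counting error only. A fixed fold of 1.2 stood in for a test, with minimums of 50 UMIs between libraries and 500 UMIs between groups of cells. Positions are those of GENCODE vM21 on GRCm38. The members, lists and divisions were chosen with earlier results of these data known. Named genes are the 10 members, *Smad1*, *Smad5*, 6 reference genes, the extremes of each list and any gene with a correlation of at least 0.2; others were chosen after their values were seen. Ratios and thinning were tested on simulated data. Python 3.11.15, numpy 2.4.6, scipy 1.17.1, pandas 2.3.3, matplotlib 3.10.9 and edgeR 4.0.16 (TMM factors only) on R 4.3.3 were used.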

Additional observations from a re-analysis of the deposited data

Results flagged for a closer look

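Barcodes with enough genes but more than 5% mitochondrial UMIs entered the comparisons only in an alternative with a limit of 10%, and transcripts of the 10 genes were present in them. In WT, 26 such barcodes held 299 UMIs of the 10 genes together, or 1535 CPM (UMIs for each 1000000 UMIs) beside 1392 in the cells kept. In the library labelled S1/5 dKO, 29 such barcodes held 361 UMIs, or 1587 CPM beside 1350. *Dppa3* had 1 UMI there in WT and 0 in the other library, and *Kdm1b* had 0 and 2.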

How the results depend on the processing

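No paired analysis was possible because each condition had 1 library. The number of genes 1.2-fold apart between libraries stayed at 2 under 9 planned settings of cells, thinning and scaling, with *Dppa3* between 0.95 and 1.07 and *Kdm1b* between 0.44 and 0.58. At 1.5-fold it was 1 between libraries and 0 by *Mest* in the library labelled S1/5 dKO. It was 1 in cells with 0 *Fgfbp1* UMIs, a setting added after the data were seen. By *Mest* in WT cells the number was 1 in place of 0 in each of 4 settings: without cells of over 2 times the median UMIs and in cells with 20000 to 60000 UMIs (*Dppa3*, 0.42 and 0.48), thinned to 10000 UMIs (*Kdm1b*, -0.76), and for at least 4 *Mest* UMIs (*Dppa3*, -0.54). The sign of *Dppa3* thus turned with the group, whose counts are few. Of 260 single values, 243 stayed within their counting interval and 17 left it, *Zfp57* by *Mest* in WT cells among them, at 0.13 when thinned. Of the values past 1.2-fold in the main comparisons, 0 changed direction. *Dppa3* by *Mest* in WT cells was not past it there. The number of genes with a variance over mean of at least 1.1 in WT was 5 at 10000 UMIs and 3 at 5000. TMM moved log2 ratios between libraries by 0.0095. The spread between cultures was not measured, and differences in *Dppa3* and *Kdm1b* rest on 222 and 181 WT UMIs.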
